A study of Mus musculus with 2 samples.

Results

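The regions described here are 1 kb stretches of the mouse autosomes that held many reads of a library labelled H2ABbd and few of a library labelled 5mC. A region was a member when it held at least 6 distinct positions (chromosome, 5' end and strand of a read, each counted once) of the first library and at most 2 of the second. Read starts were moved 100 bp towards the 3' end before counting, and bins follow the mm9 build. Of 2164448 autosomal bins with a read in either library, 2445 were members, 0.113% of all bins. Members were thus chosen by their own counts in both libraries. Those counts, also where they stand beside the counts of other bins, are given below as a description of the choice. They are not independent results. Measures that the choice did not use directly (flanks, spacing, strand, order and repeated reads) are set against other bins as well.

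H2ABbd is a short variant of the core histone H2A, without the long tail and much of the acidic surface patch of H2A, and nucleosomes that hold it are known to wrap DNA less tightly. 5-methylcytosine (5mC) is the methylated form of cytosine, in mammals mostly at CpG dinucleotides, and methylated promoters and repeats are typically silent. Embryonic stem (ES) cells keep most of the genome methylated and leave active regulatory elements with less.

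Both libraries came from mouse ES cells grown with the cytokine LIF and no feeder layer. The sources used here name no line, strain or sex. For the first, crosslinked chromatin was immunoprecipitated with a home-made rabbit antibody against mouse H2ABbd and amplified by 20 PCR cycles (ChIP-seq). For the second, sonicated genomic DNA was denatured and precipitated with a monoclonal antibody against methylated cytosine, then amplified by 15 cycles (MeDIP). Each group had 1 library and no input library was used here, so values have no replicate check and no test was run. Intervals are at 95% and cover counting error only, since PCR copies cannot be told from separate molecules without molecular identifiers. All bins share the same pair of libraries and are not replicates.

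The names of the deposited files give each antibody to the other sample. Groups follow the sample labels, and the choice of members turns round if the file names are right: the members would then be bins rich in the MeDIP library and poor in the ChIP library. The library labelled H2ABbd held 1397289 distinct positions (3503839 reads) and the library labelled 5mC held 8056333 (9266471 reads). An autosomal bin held on average 0.622 positions of the first and 3.55 of the second. Few MeDIP positions in a bin means few reads there and is not a methylation level per cytosine. Gene names, promoters and sequence of mm9 were not used here, so regions are given by coordinates alone.

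Bins rich in H2ABbd seldom held little 5mC. Of the 26873 bins with 6 or more H2ABbd positions (1.24% of all bins), 9.10% were members (exact Clopper-Pearson interval 8.76 to 9.45%), while 42.7% of all bins held 2 or fewer 5mC positions. The share of bins with little 5mC was lower at each step up in the H2ABbd count. It was 47.8% in bins with 0 H2ABbd positions, 38.7% with 1 and 12.7% (12.3 to 13.0%) with 4 or 5. Within the H2ABbd-rich bins the share ran from 10.1% (9.60 to 10.6%) at 6 or 7 positions to 7.87% (6.96 to 8.85%) at 12 to 19 and 5.70% (4.35 to 7.30%) at 20 to 39. None of the 288 bins with 40 or more H2ABbd positions was a member, where 3 counts would be 1.04%. The members are thus the low end of a graded relation in this count, with no gap between them and other H2ABbd-rich bins.

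**Figure D1:**
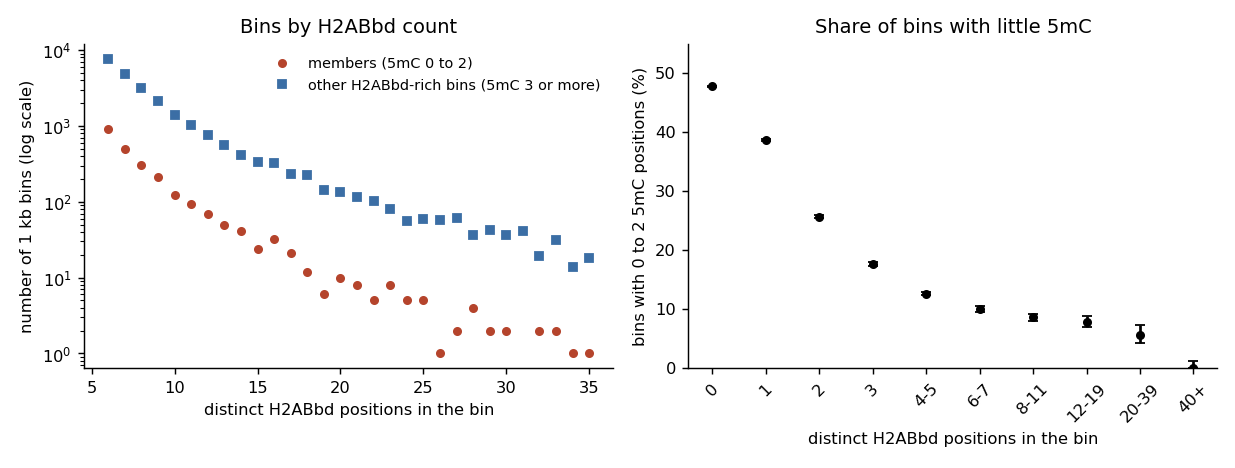
Left, the number of 1 kb bins (log scale) against their distinct H2ABbd positions, for members and for other H2ABbd-rich bins. Right, the percentage of bins with 0 to 2 5mC positions against the H2ABbd count, with exact 95% intervals, running from 47.8% at 0 positions to 5.70% at 20 to 39.

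Members held 6 to 35 H2ABbd positions with a median of 7, which is 11.3 times the autosomal mean. The median of the 24428 other H2ABbd-rich bins was also 7, but those reached 1201. Exactly 6 positions were found in 905 members, and 1547 bins with little 5mC lay just outside at 5. Of the members 530 held 10 or more positions and 58 held 20 or more. On the 5mC side 207 members (8.47%) held 0 positions, 754 (30.8%) held 1 and 1484 (60.7%) held 2. Just outside that limit lay 2243 H2ABbd-rich bins with 3. Members held 1.52% of the autosomal H2ABbd positions and 0.0484% of the 5mC positions.

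The depth places these counts on an unequal footing. A count of 6 H2ABbd positions has an exact Poisson interval of 3.54 to 21.0 times the mean, above 1, as the choice of members requires. A count of 2 5mC positions has an interval of 0.0682 to 2.03 times the mean, and a count of 0 reaches up to 1.04 times. In no single member was the 5mC level therefore distinguishable from that of an average bin. The lack of 5mC can be read only over many bins.

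The member with the most H2ABbd positions lay on chromosome 3 (8832001 to 8833000), with 35 positions (56.3 times the mean, 39.2 to 78.3) against 2 of the library labelled 5mC. Of these 35, 30 were on the plus strand of the genome and 5 on the minus strand. The bin below held 7 H2ABbd positions and the bin above 1, so the signal stopped within about a bin of the member.

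On chromosome 4 (100727001 to 100728000) the contrast with the flanks was sharper still. This member held 34 H2ABbd positions, 33 of them on the plus strand (97.1%, 84.7 to 99.9%), and both adjoining bins held 0. Its 5mC count was 2, the same as in each adjoining bin. Another member of chromosome 4 (37558001 to 37559000) held 33 positions, 27 plus and 6 minus, beside bins with 0 and 5. Its only 5mC position was on the plus strand.

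The member on chromosome 14 (124814001 to 124815000) also held 33, of which 28 were plus, and was followed by a bin with 20. On chromosome 4 from 31864001 to 31865000 a member with 32 positions, 24 of them plus, sat within a stretch of 4 H2ABbd-rich bins (31862001 to 31866000). Its neighbours held 22 and 29 H2ABbd positions and 5 and 6 5mC positions, so only the limit on 5mC made it a member and not them. Its own 5mC count of 2 has an exact Poisson interval of 0.242 to 7.22 positions, which includes 5 and 6. In all 5 bins the plus strand held at least 75.0% of the H2ABbd positions, and in all 5 nearly every position had a single read, 32 to 37 reads in all.

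Among the members with 0 5mC positions, the highest H2ABbd counts were 25 on chromosome 8 (77270001 to 77271000), 24 on chromosome 2 (53314001 to 53315000) and 22 on chromosome 11 (89415001 to 89416000). The plus strand held 22 of the 25, 15 of the 24 and 16 of the 22. Each adjoining bin held some 5mC positions, with counts of 1 and 4, 1 and 1, and 7 and 3 in that order. Of these 6 bins 3 held 2 or fewer, within the limit for members, and no width of a gap in 5mC can be read from such counts.

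**Figure D2:**
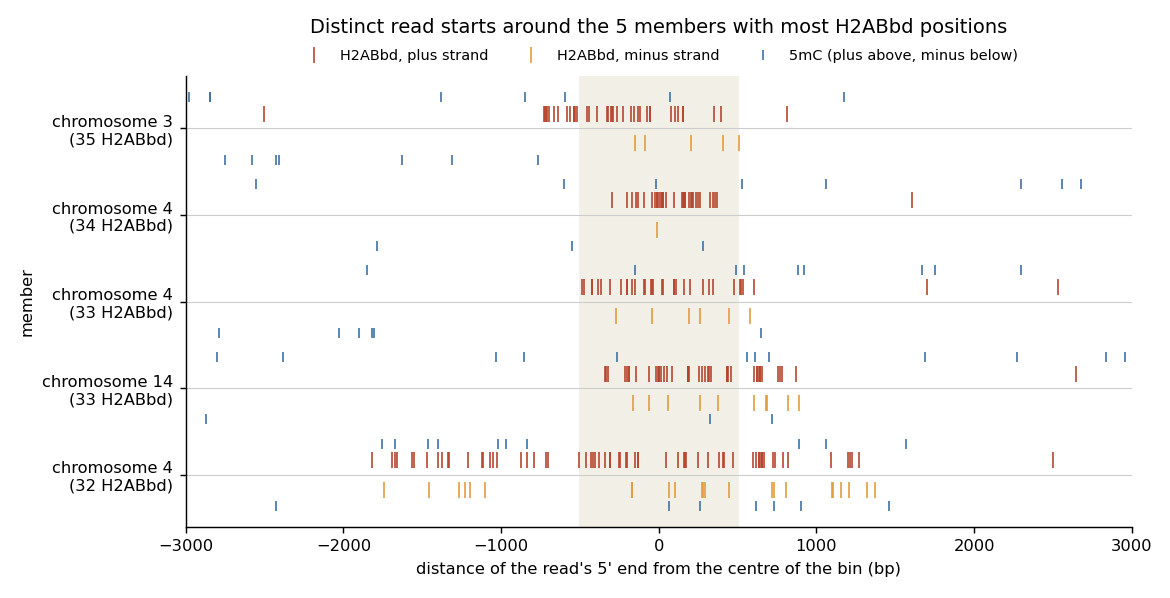
Distinct read starts within 3 kb of the centre of the 5 members with most H2ABbd positions (x axis in bp, 1 row per member, shading for the 1 kb bin), by library and strand. Plus-strand H2ABbd starts outnumber minus-strand starts in every row, 33 to 1 within the second bin, and few H2ABbd starts lie outside the cluster except in the last row.

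Members were spread over all 19 autosomes, at 1.13 per 1000 bins on average. Chromosome 12 had the most, 1.73 per 1000 (1.49 to 2.00, 184 members), followed by chromosome 1 with 1.50 (1.32 to 1.69, 250 members). The fewest were on chromosome 16, 0.807 (0.626 to 1.02, 68 members). The intervals of chromosomes 1 and 12 lay above the average and those of 3 chromosomes lay below it.

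Chromosomes 1 and 12 reached these rates with opposite backgrounds. On chromosome 12 other H2ABbd-rich bins were frequent too (18.2 per 1000 against 11.3 on average), and members were 8.72% of its H2ABbd-rich bins. On chromosome 1 the other H2ABbd-rich bins were rare (7.78 per 1000), and 16.1% of the H2ABbd-rich bins were members, the highest share of any autosome. The 5mC library was also thin there, at 0.872 of the mean density, and 50.5% of the bins of chromosome 1 held 2 or fewer 5mC positions. Chromosome 3 stood next, with 14.4% of its H2ABbd-rich bins being members and 49.5% of its bins low in 5mC. Chromosome 11, with the highest 5mC density (1.17), had the lowest share of members, 5.25%. The limit on 5mC counts enters this share directly. The chromosomes with the lowest and the highest rate of members per 1000 bins were close in 5mC density, at 0.939 (chromosome 16) and 0.969 (chromosome 12). Chromosome 1 paired a low density with a high rate (1.50), and chromosome 11 the highest density with a low rate (0.888). The relation over all autosomes was not tested.

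Near the distal ends members were more frequent, but less so than other H2ABbd-rich bins. In the last 10 Mb of the autosomes there were 1.43 members per 1000 bins (1.26 to 1.62) against 1.10 (1.06 to 1.15) elsewhere. The other H2ABbd-rich bins numbered 22.7 per 1000 (22.0 to 23.4) there against 10.3 (10.1 to 10.4).

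In windows of 1 Mb members were thinly sown: 984 of 2420 windows held none, 819 held 1, and 42 held 5 or more. Of those 42 windows 8 were on chromosome 12 and 6 on chromosome 1. The 4 windows with 10 or 11 members, 3 of them tied at 10, were all on chromosome 12. The window from 113000001 to 114000000 held 11 members, with 6 to 15 H2ABbd positions each, among 208 other H2ABbd-rich bins. Its H2ABbd density was 5.80 times the mean and its 5mC density 1.80 times. The window from 106000001 to 107000000 was alike, with 10 members among 83 other H2ABbd-rich bins, at 3.44 and 1.58 times the means. So was the window from 109000001 to 110000000, with 10 members among 111 other H2ABbd-rich bins, at 3.99 and 1.52 times.

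The last of the 4, from 89000001 to 90000000, was of another kind. It also held 10 members, but among only 21 other H2ABbd-rich bins, at an H2ABbd density of 1.45 and a 5mC density of 0.890 of the means. It contained the longest run of adjoining members on the autosomes, 3 bins from 89328001 to 89331000. These held 10, 6 and 11 H2ABbd positions and 1 5mC position each. The H2ABbd counts of the bins just outside were 3 and 5, and 2 further members lay at 89333001 to 89335000 with 6 and 9 positions.

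Most members stood alone, and some lay close together. Of the 2445 members 125 (5.11%, 4.27 to 6.06%) adjoined another member, 8.79% had one within 10 kb and 28.3% within 100 kb, and the median distance to the nearest member was 271 kb. With members redefined by at least 10 H2ABbd positions, 3.40% adjoined another bin meeting that limit. With members redefined by 0 5mC positions, 0% of 207 did. These smaller sets also leave fewer bins to adjoin. Of the bins 1 kb from a member on a given side, 2.58% (1.99 to 3.28%) were members, 22.8 times the share of members among all bins. At 2 kb the share was 0.613% (0.344 to 1.01%). Between 3 and 7 kb it stayed at 0.335% (0.241 to 0.455%, 41 pairs), 2.97 times the share among all bins. Between 8 and 20 kb it was 0.126% (0.0899 to 0.171%, 40 pairs), an interval that includes 0.113%. No excess of members near members was therefore resolved from 8 to 20 kb, though the interval also allows one there. Members were still uneven at the scale of 1 Mb, where 42 windows held 5 or more at a mean of 1.01 per window.

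Adjoining members formed 61 runs of 2 bins beside the run of 3. After that run, the runs with the most H2ABbd positions were on chromosome 4 (89469001 to 89471000, 16 and 23 H2ABbd positions, 2 and 2 of 5mC) and chromosome 9 (116896001 to 116898000, 14 and 22 H2ABbd positions, 1 and 1 of 5mC). Both ended abruptly, with 0 to 2 H2ABbd positions in the next bin on either side. On chromosome 4 the plus strand held 19 of 39 positions, and on chromosome 9 it held 27 of 36.

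Most members were also alone in the wider sense of having no H2ABbd-rich neighbour of any kind. This held for 1879 members, 76.9% (75.1 to 78.5%), and for 74.1% (73.6 to 74.7%) of the other H2ABbd-rich bins. A further 476 members lay in H2ABbd-rich runs of 2 bins, and 13 runs of 5 or more bins contained a member. The longest such run covered 16 bins of chromosome 12 (114143001 to 114159000), with 6 to 33 H2ABbd positions per bin. It contained a single member, with 23 H2ABbd and 2 5mC positions, while the 5mC count over the run averaged 8.00 and reached 13. In runs of 3 or more bins members made up 4.69% (3.54 to 6.07%) of the end bins and 3.29% (2.32 to 4.53%) of the inner bins, intervals that overlap.

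The 5mC level around members was close to the autosomal mean. In the bins 2 to 5 kb away (17316 bins, members left out, each bin counted once), the 5mC level was 1.02 times the autosomal mean (exact Poisson interval 1.01 to 1.03). In the adjoining bins it was 1.09 times (1.07 to 1.11). With stricter limits on either count the level at 2 to 5 kb lay below the mean, between 0.831 (0 5mC positions) and 0.945 (at least 8 H2ABbd positions). Sets whose flanks overlap are compared with a flank bin counted for every bin it flanks, which leaves no valid counting interval. Counted so, the 5mC level at 2 to 5 kb was 1.01 around members, 2.13 around the other H2ABbd-rich bins and 0.855 around bins with little 5mC that were not H2ABbd-rich. Only members were left out of the flanks of every set, so the other sets kept bins of their own kind in their flanks. Measured so, the level over all members lay between those of the other sets. With the 0.1% of bins most covered in either library left out, the values were 1.04 around members and 1.47 around other H2ABbd-rich bins.

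The same could be seen bin by bin. Both adjoining bins were low in 5mC (2 or fewer positions) at 20.5% (18.9 to 22.2%) of members, against 35.9% at bins with little 5mC that were not H2ABbd-rich and 8.28% at other H2ABbd-rich bins. At 35.8% of members at least 1 adjoining bin held 6 or more 5mC positions. This held for 17.2% of bins with little 5mC that were not H2ABbd-rich and 61.2% of other H2ABbd-rich bins.

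The H2ABbd level around members fell with distance and was still above the mean at 20 kb, the farthest distance measured. It was 3.74 times the mean (3.67 to 3.81) in adjoining bins, 1.76 (1.73 to 1.78) at 2 to 5 kb and 1.14 (1.10 to 1.18) at 20 kb. With a flank bin counted for every bin it flanks, the levels were 3.77, 1.77 and 1.14 around members and 7.42, 5.32 and 3.22 around other H2ABbd-rich bins. The flanks of the latter kept other H2ABbd-rich bins, while members were left out of all flanks. With the most covered bins left out they were 3.20, 1.83 and 1.24 around members and 3.87, 2.77 and 2.03 around the others. At 18.5% of members both adjoining bins held 0 H2ABbd positions, against 13.6% of other H2ABbd-rich bins.

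**Figure D3:**
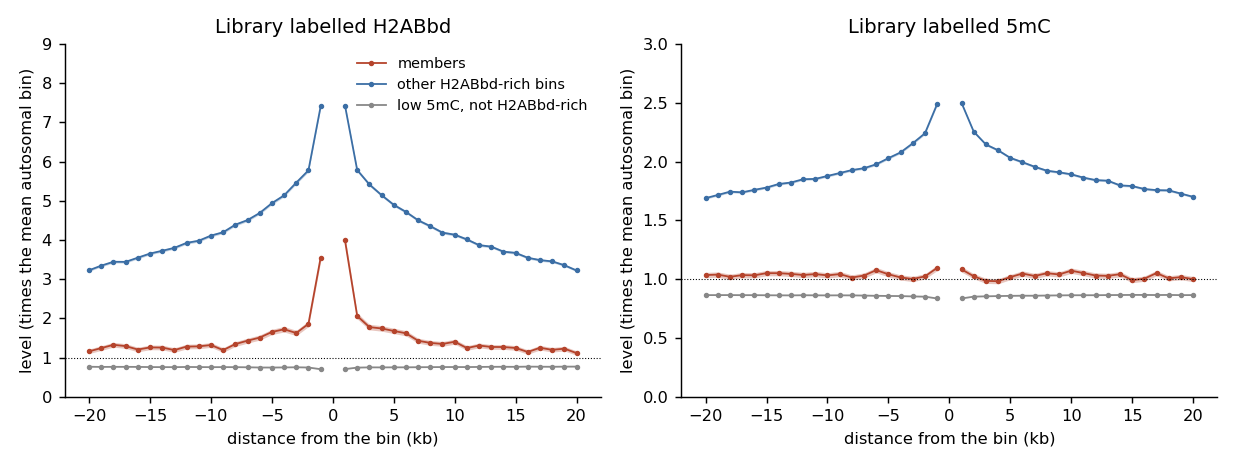
Level of each library (times the mean autosomal bin) against distance in kb from members, other H2ABbd-rich bins and low-5mC bins that are not H2ABbd-rich, with members left out of the flanks and shading for exact Poisson 95% intervals. Around members the H2ABbd level falls from 3.55 and 3.99 in the adjoining bins to 1.16 and 1.11 at 20 kb while the 5mC level stays close to 1, and around other H2ABbd-rich bins both stay above 1 (3.23 and 1.69 at 20 kb on the lower side).

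Members with more H2ABbd lay in surroundings with less 5mC. The 5mC level at 2 to 5 kb was 1.06 (1.05 to 1.07) around members with 6 or 7 H2ABbd positions and 0.975 (0.961 to 0.990) at 8 to 11. It was 0.900 (0.877 to 0.924) at 12 to 19 and 0.713 (0.670 to 0.758) at 20 to 35. The H2ABbd level of the flanks did not follow: it was 1.77, 1.77, 1.68 and 1.95. By their own 5mC count, members with 0, 1 and 2 positions had flanks at 0.832 (0.808 to 0.857), 0.966 and 1.06. The tallest members were thus the ones whose surroundings were poorest in 5mC reads.

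The strands were unequal in members. The plus strand held 63.7% of the H2ABbd positions in members (13062 of 20512, 63.0 to 64.3%), against 52.3% (52.1 to 52.5%) in other H2ABbd-rich bins and 54.3% in all autosomal bins. Without the most covered bins the other H2ABbd-rich bins stood at 56.3%. The excess was also present in the library labelled 5mC: 62.5% (61.0 to 64.1%) of its 3722 positions in members were plus, against 53.1% in other H2ABbd-rich bins and 53.3% in low-5mC bins that were not H2ABbd-rich. The plus share of H2ABbd was higher in members than in other H2ABbd-rich bins on 19 of 19 autosomes and ranged from 58.0% on chromosome 12 to 67.8% on chromosome 16.

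The imbalance was larger at higher H2ABbd counts and at lower 5mC counts. It was 61.1% at 6 or 7 H2ABbd positions, 62.6% at 8 to 11, 69.8% (68.3 to 71.3%) at 12 to 19 and 69.4% (66.9 to 71.7%) at 20 to 35. At equal counts other H2ABbd-rich bins were at 55.5%, 56.3%, 58.8% and 65.9%. The 5mC positions of the same members were 60.2%, 64.0%, 68.2% and 73.6% (63.3 to 82.3%) plus, while those of the other H2ABbd-rich bins stayed between 54.1% and 55.7%. By 5mC count, H2ABbd-rich bins with up to 35 H2ABbd positions were 67.7% plus at 0 5mC positions, 65.0% at 1 and 62.5% at 2. They were 63.0% plus at 3, just outside the limit, and 57.1% at 6 to 9 and 53.2% at 10 to 19. The limit of 2 thus cuts a gradual trend.

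**Figure D4:**
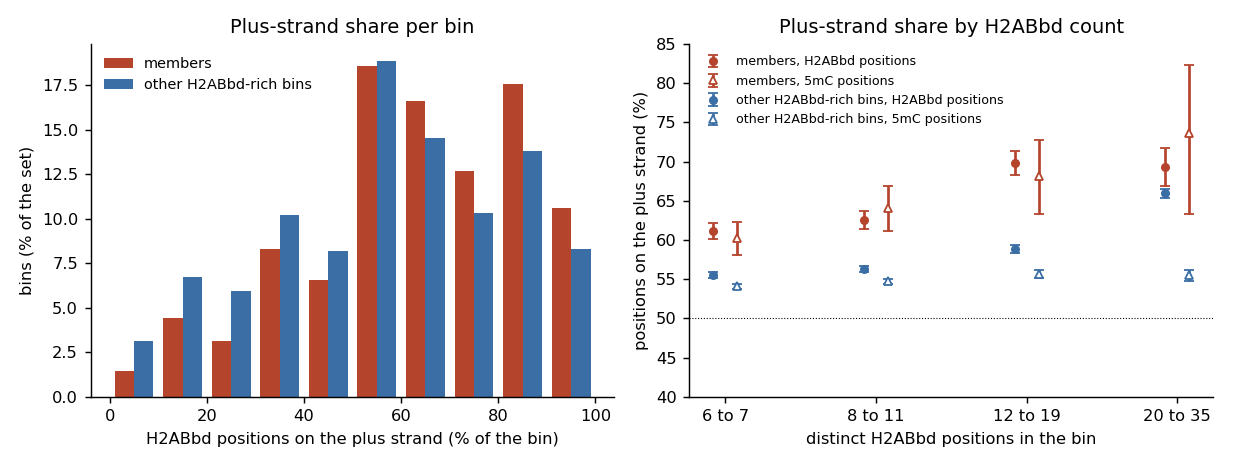
Left, the percentage of bins against the plus-strand share of their H2ABbd positions (in steps of 10%), for members and other H2ABbd-rich bins. Right, the plus-strand share of H2ABbd (filled circles) and 5mC positions (open triangles) by H2ABbd count with exact 95% intervals, where members go from 61.1% to 69.4% (H2ABbd) and from 60.2% to 73.6% (5mC) and the 5mC positions of other bins stay near 55%.

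The excess was also seen in the number of bins leaning to either strand. Of the members 690 (28.2%, 26.4 to 30.1%) had 80% or more of their H2ABbd positions on the plus strand and 147 (6.01%) had 20% or less. In other H2ABbd-rich bins these shares were 22.1% and 10.2%. All positions were plus in 201 members and minus in 35. Members with 80% or more plus had 5mC positions that were 66.8% plus (63.7 to 69.7%), those with under 20% plus had 59.4% (52.6 to 65.9%). The flanks of these groups of members also differed in 5mC, at 0.871 (0.857 to 0.885) of the mean around the first and 1.26 (1.22 to 1.29) around the second. Neither order was particular to members. In other H2ABbd-rich bins of up to 35 positions, split alike, 61.8% and 47.0% of the 5mC positions were plus. The 5mC level of their flanks was 1.33 and 1.67.

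The imbalance differed with place. Members in the last 10 Mb of the autosomes were 58.8% plus (56.6 to 61.0%), those elsewhere 64.2% (63.5 to 64.9%). In the 4 windows of chromosome 12 with the most members the plus share was 43.2% (32.7 to 54.2%) from 113000001, 45.5% (34.1 to 57.2%) from 106000001, 47.5% (36.2 to 59.0%) from 109000001 and 56.0% (44.7 to 66.8%) from 89000001. The intervals of the first 3 lie below the 63.7% of all members, and that of the window from 89000001 includes it. These intervals take each position as independent and do not measure the spread between bins, of which each window had 10 or 11. In the first window single members ran from 0 of 6 to 6 of 8 positions plus. Whether the windows differ from other members was not tested. Without chromosome 12 the share over members was 64.1%.

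The imbalance reached into the flanks, and for H2ABbd it depended on the side from 2 kb outwards. In the adjoining bins the plus strand of H2ABbd was higher on both sides, at 5.08 (4.92 to 5.24) against 2.69 (2.57 to 2.82) above and 3.88 (3.74 to 4.03) against 3.15 (3.01 to 3.29) below. In the bins 2 to 5 kb above a member (towards higher coordinates), plus-strand H2ABbd positions stood at 2.11 times (2.05 to 2.16) the autosomal mean of that strand and minus-strand positions at 1.46 times (1.42 to 1.51). In the bins 2 to 5 kb below, the intervals of the strands overlapped, at 1.72 (1.67 to 1.77) and 1.71 (1.65 to 1.76). In the library labelled 5mC the plus strand exceeded the minus strand on both sides, by 1.09 to 0.960 below and 1.08 to 0.926 above. Around other H2ABbd-rich bins of up to 35 positions, each flank bin was again counted once. There too plus-strand H2ABbd was higher in the adjoining bin above, at 4.90 (4.85 to 4.95) against 4.09 (4.04 to 4.14). In the adjoining bin below the strands were 4.45 and 4.46. At 2 to 5 kb the H2ABbd strands were 2.57 and 2.50 above and 2.43 and 2.57 below. The 5mC strands there were 1.51 and 1.49 above and 1.48 and 1.48 below.

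The strands came together again at 7 to 8 kb in both libraries. At 6 kb above a member plus-strand H2ABbd was 1.81 (1.71 to 1.91) and minus-strand 1.40 (1.31 to 1.49), and at 8 kb they were 1.38 and 1.37. The 5mC strands were 1.11 (1.07 to 1.14) and 0.983 (0.951 to 1.02) at 6 kb above, 1.13 (1.10 to 1.17) and 1.02 (0.983 to 1.05) at 6 kb below, and at 8 kb 1.04 and 1.06 above and 1.01 and 1.02 below. Beyond about 7 kb an excess of members near members was not resolved either.

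**Figure D5:**
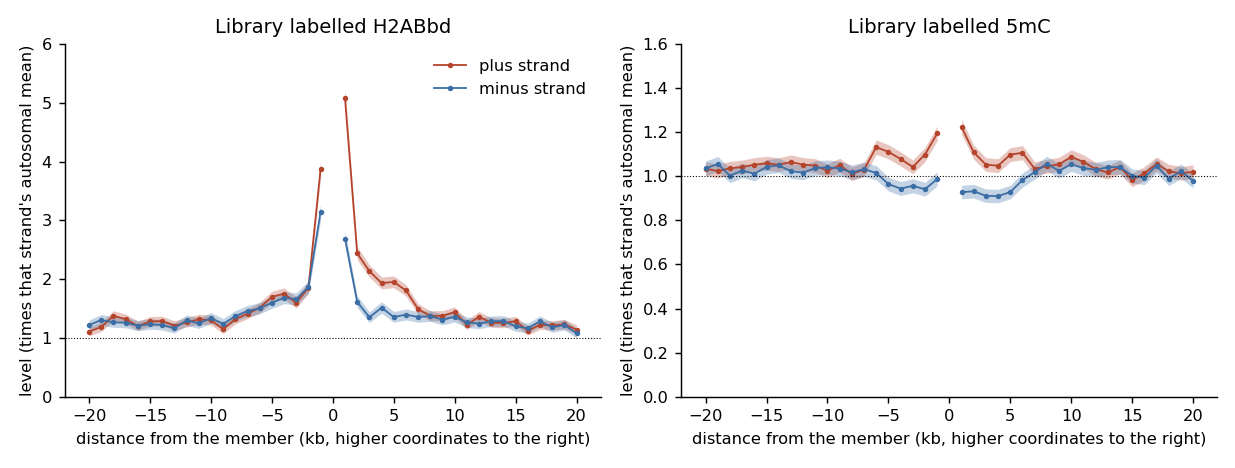
Level of each strand (times the autosomal mean of that strand) against distance in kb from members, for the library labelled H2ABbd (left) and 5mC (right), with shading for exact Poisson 95% intervals. Within about 6 kb the strands differ for 5mC on both sides and for H2ABbd on the side of higher coordinates (2.11 against 1.46 at 2 to 5 kb) and in the adjoining lower bin (3.88 against 3.15), and have overlapping intervals at 8 kb.

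Reads from the ends of immunoprecipitated fragments usually face each other, with plus-strand starts on the lower side. In the 2209 members with positions on both strands, the median minus-strand start lay on the 3' side of the median plus-strand start in 85.2% (83.7 to 86.7%), with a median offset over all 2209 of 138.5 bp. The corresponding values in other H2ABbd-rich bins were 83.4% and 146 bp. The shift of reads before binning favours this order. Members chosen without a shift had it in 72.1% (70.1 to 73.9%). The starts of a member spanned a median of 452 bp (568 bp in other H2ABbd-rich bins), and in 25.0% of members they spanned 300 bp or less (18.0%).

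Members held few repeated reads. They had 1.14 H2ABbd reads per distinct position (1.14 to 1.15), and no position held more than 8 reads. Other H2ABbd-rich bins had 7.76 reads per position, or 1.25 once the most covered bins were left out, and a position among them held 8016 reads. None of the 288 bins with 40 or more H2ABbd positions met the limit on 5mC, so the choice itself left those bins out of the members. In bins with little 5mC that were not H2ABbd-rich the value was 1.19, and there too no position held more than 8 H2ABbd reads. The 5mC reads of members numbered 1.03 per position, the same as in these low-5mC bins. Separate positions were required by the choice of members, and these had few copies each. A repeated H2ABbd position was found in 55.9% of members and in 72.3% of other H2ABbd-rich bins.

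The few 5mC positions in members did not avoid the middle of the H2ABbd cluster. Of 3722 such positions 51.3% (49.7 to 53.0%) lay within 200 bp of the median H2ABbd position of their bin, against 53.1% (52.9 to 53.3%) in other H2ABbd-rich bins of up to 35 positions. The median distance was 192.5 bp in members and 183 bp in the others.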

How the data were processed

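Aligned reads of 1 ChIP library (labelled H2ABbd) and 1 MeDIP library (labelled 5mC) were analysed. The authors aligned reads to mm9 with Bowtie and checked them with FastQC, per the submitters' processing notes. Neither versions nor the handling of multiply aligning reads is given in the sources used here. Each line of the deposited files is a 42 bp read, and the deposited score is 255 on every line and was not used. Lines with broken separators, 8 and 1, were left out. Distinct positions were shifted by 100 bp and counted in 1 kb bins. Levels are counts per bin over the mean of autosomal bins with a read in either library. Flank bins without any read and members were left out for every set, and bins of the other sets were kept. Shares have exact Clopper-Pearson and counts exact Poisson intervals at 95%. Intervals of strand shares take positions as independent, although positions of a bin can lean to the same strand. Counting was tested on simulated data.

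Members, sets and measures were chosen with earlier results of these data known. Named are the 5 members with most H2ABbd positions, the 3 such with 0 5mC, the 3 longest runs and the 3 windows of 1 Mb with most members (another, tied with the last of these, was added). The strand-specific flanks, the split by plus share, the distance of 5mC positions and the values by place were added after the counts were seen. The closing section gives 10 alternatives and 1 added after seeing the data, flank bins counted for every member they flank. Python 3.11.15, numpy 2.4.6, scipy 1.17.1, pandas 2.3.3 and matplotlib 3.10.9 were used.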

Additional observations from a re-analysis of the deposited data

Results flagged for a closer look

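The comparisons leave out the sex chromosomes, and bins there also met the count limits. On X 176 of 135358 bins did, 1.30 per 1000 (1.12 to 1.51), and 71.8% of their H2ABbd positions were on the plus strand. X was thinner in both libraries, at 0.368 H2ABbd and 2.67 5mC positions per bin. On Y 4 of 954 bins with a read met the limits. Both counts exceed 3 bins, the limit a count of 0 allows, and neither library has a control to set beside them.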

How the results depend on the processing

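Of the recomputed values 31 stayed within the interval (counts: within 1.5 times) of the reported one and 36 moved out of it. Another 4, all of the 5mC level at 2 to 5 kb, fell on the other side of 1. The number of members was 4307 with all aligned reads, 1041 and 530 at an H2ABbd minimum of 8 and 10, and 961 and 207 at a 5mC maximum of 1 and 0. Counts of 2408 (no shift) and 2422 (bin edges moved) hide turnover: 1718 members were kept without a shift, and 923 overlapped a bin that qualified on the moved grid. The 5mC level at 2 to 5 kb, reported as 1.02, fell below 1 with stricter limits: 0.945 and 0.893 at a minimum of 8 and 10, 0.937 and 0.831 at a maximum of 1 and 0. The cause was not tested. It was 1.01 (H2ABbd 1.77) with flank bins counted for every member, an alternative chosen after seeing the data. It was 1.23 with all reads, 1.01 without a shift, 1.00 on the moved grid and 1.04 without the most covered bins. The H2ABbd level there was 2.38 with all reads, 1.70 and 1.72 with no shift and 50 bp, 1.79 at a minimum of 10, 1.59 and 1.35 at a maximum of 1 and 0, and 1.82 without the most covered bins. Members adjoining a member were 3.53% with all reads, 3.92% on the moved grid, 4.03% and 3.40% at a minimum of 8 and 10, and 4.06% and 0% at a maximum of 1 and 0. The plus share was 58.3% with all reads, 64.8% on the moved grid, 65.7% and 68.5% at a minimum of 8 and 10, and 65.6% and 67.7% at a maximum of 1 and 0. The order of the strands was kept in 72.1% without a shift and 79.8% with 50 bp. Reads per position were 1.12 and 1.09 at a minimum of 8 and 10, 1.13 and 1.12 at a maximum of 1 and 0, 1.15 without the most covered bins and 1.14 with X added. No paired analysis was possible because each group has 1 library and no result comes from a test. The 5mC depth, 3.55 positions per bin, does not separate a single member from the mean.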
